A study of Mus musculus with 14 samples.

Results

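GLUT4, the glucose transporter that insulin and contraction send to the surface of muscle fibers, was followed here through 10 of the 54532 genes counted in mouse skeletal muscle: the transporter genes Slc2a4 (GLUT4) and Slc2a1 (GLUT1), 3 small GTPases (Rab8a, Rab10 and Rab13), the GTPase activators Tbc1d1 and Tbc1d4, the vesicle aminopeptidase Lnpep, the membrane fusion protein Stx4a, and Rabif, a Rab-binding protein. Rabif was selected on its measured difference between groups of these same libraries, so its values are given as a description, without a test. The other 9 genes were named for their roles, at a time when earlier results of these data were known. All 10 were found by symbol and all 10 passed the filter on low counts, so that 9 genes could be tested.

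RNA was taken from whole soleus and gastrocnemius muscle of male FVB/N mice, and poly-T beads were used to purify the messenger RNA of 14 libraries. EC-Myc OE mice (OE) carried Cdh5-tTA, a transactivator driven by an endothelial promoter, together with Tet-O-Myc, a human c-Myc transgene. Littermate controls (CT) carried Tet-O-Myc but no transactivator, so that the transgene itself was common to all groups. In OE mice the transgene was switched on at 4 to 6 weeks of age by taking the animals off doxycycline diet. By the labels, 3 libraries came from CT mice on control diet (CT-CTD), 3 from CT mice on western diet, a high-fat diet (CT-WD), 4 from OE mice on control diet (OE-CTD) and 4 from OE mice on western diet (OE-WD), with 20 weeks on diet, and the age at collection is not given in the labels. A shorter diet is given for the transcriptome in the results text of the study than in the labels, and its figure legend ties the group sizes to diet, whereas in the labels they follow genotype. An exchange of the names CT-WD and OE-CTD would give sizes that follow diet. With such an exchange the comparison of OE-CTD with CT-CTD would be one of diet in CT mice, that of OE-WD with OE-CTD one of genotype on western diet, and that of CT-WD with CT-CTD one of genotype on control diet. Groups are used here as labelled, and every statement on genotype or diet below depends on those labels. The labels give no muscle for a single library, nor do they say that libraries of a group came from separate animals, so p-values measure the spread between these libraries. The library codes of OE-CTD 1 to 3 end in the same number, and so do those of all 4 OE-WD libraries, whereas each CT library has a number of its own. What the shared numbers stand for is not given, so the spread within the OE groups, which enters every call below, may be that of libraries more closely related than those of CT. Over all genes, OE-CTD 1 to 3 differed from one another by a chi-square per degree of freedom of 7.81 to 10.6 and OE-WD 1 to 3 by 8.52 to 15.2, against 16.8 to 50.8 between CT libraries of a group. OE-CTD 4 and OE-WD 4 differed from the others of their groups by 37.0 to 43.0 and 38.9 to 42.8, although OE-WD 4 shares the number of its group.

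Summed counts were 24807368, 24101226 and 25054855 in CT-CTD 1 to 3 and 26518734, 21833839 and 23814408 in CT-WD 1 to 3. In OE-CTD 1 to 4 they were 25486678, 28519159, 22966288 and 22083340, and OE-WD 1 to 4 had 25281275, 27115249, 22033140 and 27698046, so that depth was alike in all groups. OE-CTD 4 and OE-WD 4 stood apart, with 14.9% and 14.5% of their counts on genes of mitochondrial DNA, against at most 12.8% in the other 12 libraries. Counts of the mouse Myc gene were 4.59, 6.11 and 4.45 CPM (counts scaled to library size with TMM factors) in CT-CTD, 8.71, 4.93 and 13.3 in CT-WD, 6.63, 5.87, 6.84 and 3.06 in OE-CTD, while OE-WD had 9.03, 5.61, 5.74 and 5.22. Mouse Myc thus overlapped between genotypes on each diet, and the human transgene was not measured here.

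In resting muscle most GLUT4 sits in storage vesicles together with Lnpep. Insulin acts through the kinase Akt, and contraction through AMP-activated kinase, on Tbc1d4 and Tbc1d1, which otherwise hold Rab proteins such as Rab8a, Rab10 and Rab13 in the GDP-bound, inactive state; active Rabs move the vesicles to the cell surface, where fusion runs through syntaxin 4. Rabif binds Rab proteins that have lost their nucleotide and stabilizes Rab10.

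Rabif (ENSMUSG00000042229, chromosome 1, 134494648 to 134508774, + strand, GRCm38) was at 53.4, 36.9 and 26.2 CPM in CT-CTD 1 to 3 and at 21.7, 13.7, 12.9 and 22.4 CPM in OE-CTD 1 to 4. Every OE-CTD library was under the lowest CT-CTD library, and the highest CT value was that of replicate 1. On western diet the gene was at 54.6, 34.1 and 36.1 CPM in CT-WD 1 to 3 and at 44.2, 29.3, 39.7 and 31.1 CPM in OE-WD 1 to 4. Replicate 1 was the highest library of both groups, the genotypes overlapped on this diet, and all OE-WD libraries were above all OE-CTD libraries. Group means were 38.8 ± 13.7 CPM (SD, n = 3) in CT-CTD, 41.6 ± 11.3 (n = 3) in CT-WD, 17.7 ± 5.06 (n = 4) in OE-CTD and 36.1 ± 7.08 (n = 4) in OE-WD.

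As differences, the log2 fold change of Rabif was 1.03 ± 0.24 (SE) for OE-WD over OE-CTD and -1.14 ± 0.25 for OE-CTD over CT-CTD. For CT-WD over CT-CTD it was 0.10 ± 0.27 and for OE-WD over CT-WD -0.21 ± 0.25. The diet by genotype interaction, which is the diet difference in OE minus that in CT, was 0.93 ± 0.36 on the log2 scale. OE-CTD is the low group in both of the larger values, so they share its 4 libraries. Without CT-CTD 1 the difference of OE-CTD from CT-CTD was -0.84 and that of CT-WD from CT-CTD 0.39. The latter Rabif difference turned to -0.15 without CT-WD 1 and to -0.12 without CT-CTD 3. Without CT-WD 1 the difference of OE-WD from CT-WD was 0.04. The study reports Rabif as higher in OE-WD than in CT-WD, which the groups as labelled do not show. As labelled, Rabif was higher in OE-WD than in OE-CTD, the comparison that an exchange of the names CT-WD and OE-CTD would turn into that one.

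**Figure D1:**
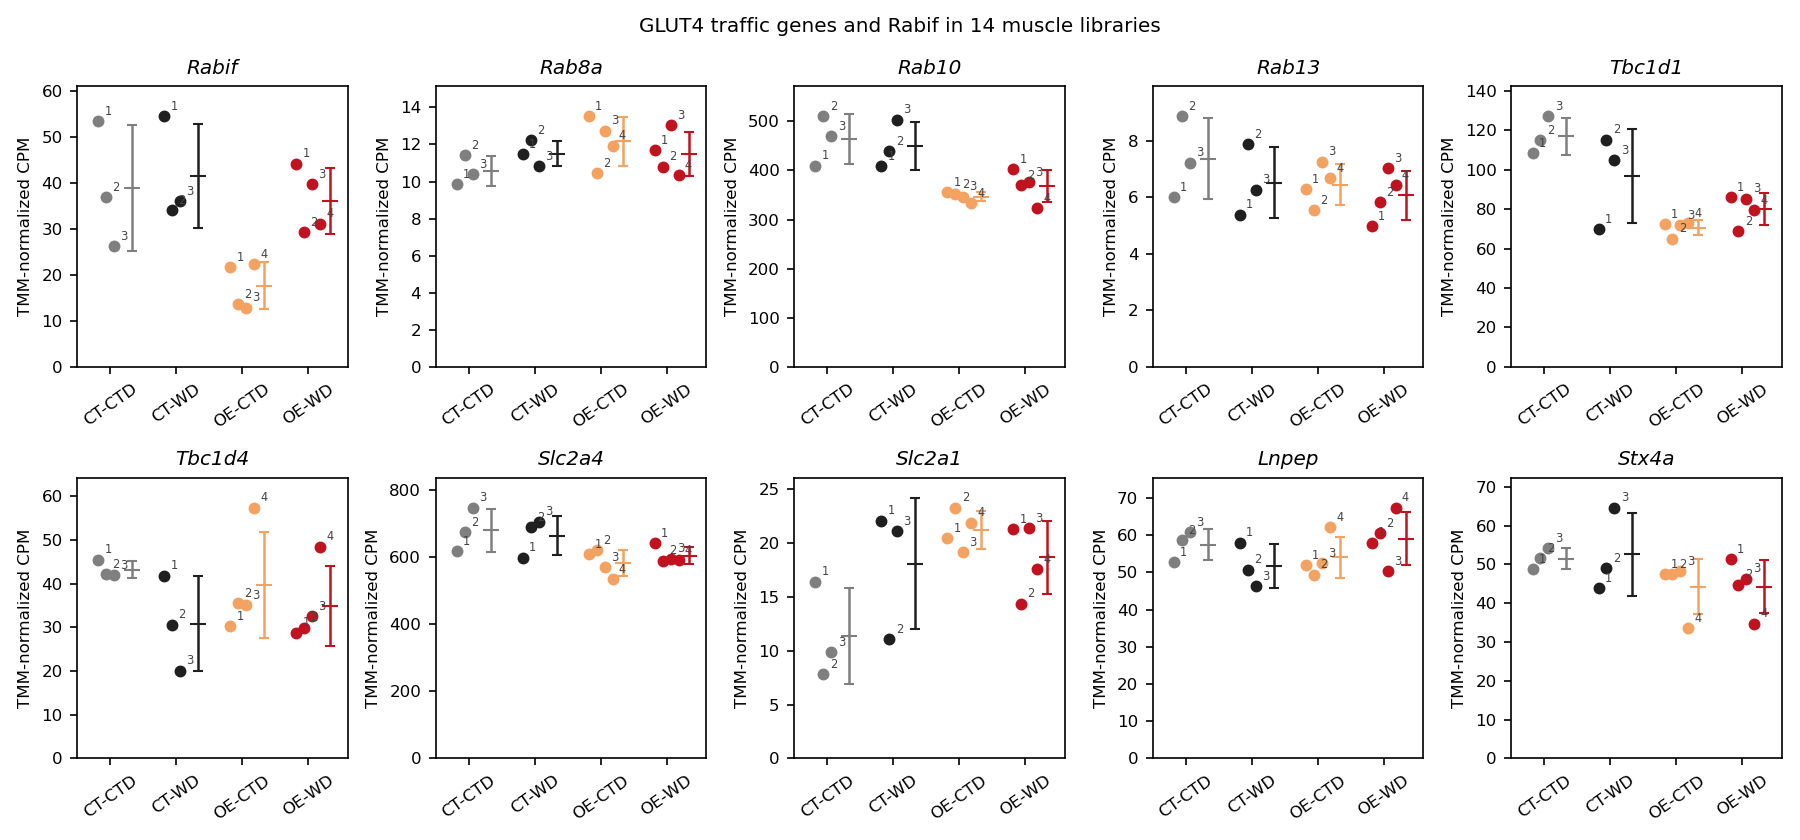
TMM-normalized CPM (y axis, from 0) of each of the 10 genes in each of the 14 libraries, by group (x axis). Points are libraries with their replicate number, and bars are the group mean ± SD (n = 3 for CT-CTD and CT-WD, n = 4 for OE-CTD and OE-WD). OE-CTD libraries lie under all CT-CTD libraries for Rabif (12.9 to 22.4 against 26.2 to 53.4 CPM), Rab10 (334 to 356 against 409.9 to 511) and Tbc1d1 (65.0 to 73.0 against 109 to 127).

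The first comparison asks how endothelial c-Myc related to these genes in muscle on control diet. Of the 9 tested genes, 2 fell in OE-CTD relative to CT-CTD and none rose: Tbc1d1 and Rab10 (edgeR's quasi-likelihood test, Benjamini-Hochberg adjusted p under 0.05, over 15458 genes). Of all genes tested, 413 (2.67%) passed the same test. At an unadjusted p under 0.05 the count was 4 of the 9 genes, with Slc2a1 higher and Rab10, Tbc1d1 and Slc2a4 lower, beside 15.9% of all genes. The median log2 fold change was -0.20 over the 9 genes and -0.000702 over all genes. The count of 2 became 0 without CT-CTD 3, 1 without CT-CTD 2, without any single OE-CTD library or without OE-WD 3, and 3 without CT-CTD 1 or without CT-WD 2.

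Tbc1d1 (ENSMUSG00000029174, chromosome 5, 64156305 to 64351486, + strand), the GTPase activator that AMP-activated kinase as well as Akt phosphorylates in muscle, was counted at 109, 115 and 127 CPM in CT-CTD 1 to 3 and at 72.5, 65.0, 71.8 and 73.0 CPM in OE-CTD 1 to 4. The ranges did not overlap, and the OE-CTD values lay close together. It fell by 0.73 ± 0.13 (SE) on the log2 scale, -39.6% (95% interval of the log2 fold change -1.01 to -0.44; adjusted p = 0.0112, edgeR's quasi-likelihood test with Benjamini-Hochberg adjustment). On western diet Tbc1d1 was at 69.7, 115 and 105 CPM in CT-WD 1 to 3 and at 86.3, 68.8, 85.3 and 79.6 CPM in OE-WD 1 to 4. CT-WD 1 was low there, and the other CT-WD libraries were above all OE-WD libraries. The log2 fold change of OE-WD over CT-WD was -0.27 ± 0.14 (adjusted p = 0.324, edgeR with Benjamini-Hochberg adjustment), and without CT-WD 1 it was -0.46 (adjusted p = 0.013), without CT-WD 2 -0.12 (adjusted p = 0.789). For the control diet, leaving out CT-CTD 3 gave -0.66 (adjusted p = 0.0729 in edgeR), the only setting of 23 in which Tbc1d1 was not called. Its diet by genotype interaction was 0.46 ± 0.19 on the log2 scale (unadjusted p = 0.0299, edgeR; adjusted p = 0.834), and leaving out CT-WD 1 gave 0.27, leaving out CT-WD 2 0.60.

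Tbc1d4 (ENSMUSG00000033083, chromosome 14, 101442360 to 101609191, - strand), or AS160, the activator that Akt phosphorylates, was at 45.5, 42.2 and 41.9 CPM in CT-CTD and at 30.3, 35.6, 35.1 and 57.4 CPM in OE-CTD. OE-CTD 4 was above every CT-CTD library and the other OE-CTD libraries were under them. In CT-WD the values were 41.8, 30.6 and 20.1 CPM, and in OE-WD 28.8, 30.0, 32.5 and 48.5 CPM. CT-WD 3 was the lowest library of all 14, and OE-WD 4 was again the highest of its group. The CT groups did not overlap, but CT-WD 1 and CT-CTD 3 were nearly equal, and the log2 fold change of CT-WD over CT-CTD was -0.48 ± 0.26 (adjusted p = 0.761, edgeR's quasi-likelihood test with Benjamini-Hochberg adjustment). It was -0.77 without CT-WD 1 and -0.25 without CT-WD 3. OE-CTD differed from CT-CTD by -0.13 ± 0.24 and OE-WD from CT-WD by 0.18 ± 0.24 on the log2 scale (adjusted p = 0.854 and 0.76, edgeR with Benjamini-Hochberg adjustment). The former was -0.36 without OE-CTD 4 and -0.02 without OE-CTD 1, and the latter turned to -0.06 without CT-WD 3 and to -0.02 without OE-WD 4. Paired by replicate number within a genotype, Tbc1d4 was lower on western diet in 7 of 7 pairs, as were 1.05% of all genes. With a replicate block within each genotype, a fit chosen after seeing the data, it was not called in CT (-0.54, unadjusted p = 0.00199, edgeR; adjusted p = 0.182) or in OE (-0.17, adjusted p = 0.721).

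Rab10 (ENSMUSG00000020671, chromosome 12, 3247428 to 3309969, - strand), the Rab that Tbc1d4 acts on in fat cells, was at 409.9, 511 and 470.4 CPM in CT-CTD 1 to 3 and at 356, 351.3, 347 and 334 CPM in OE-CTD 1 to 4. All OE-CTD libraries were under all CT-CTD libraries, with an SD of 9.32 CPM in OE-CTD against 50.8 in CT-CTD. It fell by 0.42 ± 0.099 (SE) on the log2 scale, -25.2% (95% interval -0.63 to -0.21; adjusted p = 0.0366, edgeR's quasi-likelihood test with Benjamini-Hochberg adjustment). In CT-WD it was at 408, 439.6 and 504 CPM and in OE-WD at 403, 369.9, 377 and 323 CPM. The genotypes did not overlap on this diet either, although OE-WD 1 and CT-WD 1 were near each other. There the log2 fold change was -0.29 ± 0.099 (adjusted p = 0.158, edgeR with Benjamini-Hochberg adjustment), and -0.36 without CT-WD 1 (adjusted p = 0.0467).

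The Rab10 call on control diet was close to the threshold and was made in 15 of 23 settings. Its adjusted p was 0.185 without CT-CTD 2, 0.147 without CT-CTD 3, 0.0739, 0.0929, 0.0907 and 0.057 without OE-CTD 1, 2, 3 and 4, and 0.0536 without OE-WD 3, with log2 fold changes between -0.51 and -0.34 over the single libraries left out. With limma on log2(FPKM + 1) the adjusted p of Rab10 was 0.0517.

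Rab8a (ENSMUSG00000003037, chromosome 8, 72161200 to 72183904, + strand), which carries GLUT4 vesicles in muscle cells, was counted at 9.85, 11.4 and 10.4 CPM in CT-CTD and at 13.5, 10.5, 12.7 and 11.9 CPM in OE-CTD. On western diet its values were 11.5, 12.2 and 10.9 CPM in CT-WD and 11.7, 10.8, 13.1 and 10.4 CPM in OE-WD. The 4 groups overlapped. Rab13 (ENSMUSG00000027935, chromosome 3, 90213695 to 90226385, + strand), another Rab that Tbc1d4 acts on in muscle cells, was at 6.01, 8.87 and 7.23 CPM in CT-CTD and at 6.29, 5.54, 7.26 and 6.69 CPM in OE-CTD. In CT-WD it was at 5.39, 7.88 and 6.27 CPM and in OE-WD at 4.98, 5.82, 7.02 and 6.43 CPM. Replicate 2 was the highest of both CT groups, and all groups overlapped here too. For OE-CTD over CT-CTD the log2 fold change was 0.20 ± 0.12 for Rab8a and -0.20 ± 0.17 for Rab13 (adjusted p = 0.43 and 0.647, edgeR's quasi-likelihood test with Benjamini-Hochberg adjustment), and that of Rab13 was -0.33 without CT-CTD 1 and -0.04 without CT-CTD 2. Their 95% intervals, -0.04 to 0.45 and -0.56 to 0.17, leave room for a rise of Rab8a and a fall of Rab13 as large as the fall of Rab10.

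Slc2a4 (ENSMUSG00000018566, chromosome 11, 69942539 to 69948188, - strand), GLUT4 itself, was counted at 617, 672 and 746 CPM in CT-CTD and at 608, 619, 569 and 534 CPM in OE-CTD. The highest OE-CTD library was just above the lowest CT-CTD library, and the others lay under it. On western diet Slc2a4 was at 597, 687 and 704 CPM in CT-WD and at 641, 589, 595 and 589.8 CPM in OE-WD. CT-WD 1 was inside the OE-WD range and the other CT-WD libraries were above it. OE-CTD differed from CT-CTD by -0.22 ± 0.091 on the log2 scale (unadjusted p = 0.0289, edgeR; adjusted p = 0.246), and OE-WD from CT-WD by -0.14 ± 0.091 (adjusted p = 0.485, edgeR). The diet differences were -0.03 ± 0.098 in CT and 0.05 ± 0.085 in OE (adjusted p = 0.972 and 1, edgeR's quasi-likelihood test with Benjamini-Hochberg adjustment). With single libraries left out they were between -0.11 and 0.041 in CT and between 0.012 and 0.085 in OE. The genotype differences were then between -0.29 and -0.15 on control diet and between -0.21 and -0.090 on western diet.

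Slc2a1 (ENSMUSG00000028645, chromosome 4, 119108711 to 119137983, + strand), the transporter for basal glucose uptake that is also found in endothelial cells and red blood cells, was at 16.4, 7.82 and 9.89 CPM in CT-CTD and at 20.4, 23.3, 19.2 and 21.9 CPM in OE-CTD. All OE-CTD libraries were above all CT-CTD libraries, of which replicate 1 was the highest. The log2 fold change was 0.90 ± 0.25 (95% interval 0.37 to 1.42), and it did not pass the test (unadjusted p = 0.00244; adjusted p = 0.0721, edgeR's quasi-likelihood test with Benjamini-Hochberg adjustment). It passed without CT-CTD 1 (1.25, adjusted p = 0.019) and without CT-WD 2 (0.90, adjusted p = 0.0328), and also with the DESeq2 Wald test (0.00974), with no filter on low counts (0.00195), with only the groups compared in the fit (0.0357) and with a replicate block (0.0283). Here and below that block ties replicate numbers across genotypes, where paired deviations of OE-CTD and CT-CTD correlated at only 0.044, -0.154 and -0.143. In CT-WD Slc2a1 was at 22.1, 11.1 and 21.1 CPM and in OE-WD at 21.3, 14.4, 21.4 and 17.6 CPM. CT-WD 2 was the low library there, and the genotypes overlapped. The difference of CT-WD from CT-CTD was 0.67 ± 0.26 on the log2 scale (unadjusted p = 0.0213, edgeR; adjusted p = 0.595) and that of OE-WD from CT-WD 0.04 ± 0.24 (adjusted p = 0.954). The latter turned to -0.21 without CT-WD 2, to -0.03 without OE-WD 1 and to -0.03 without OE-WD 3. With single libraries left out the Slc2a1 difference of CT-WD from CT-CTD was between 0.46 and 1.02. The interaction was -0.86 ± 0.34 (unadjusted p = 0.0244, edgeR; adjusted p = 0.834).

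Lnpep (ENSMUSG00000023845, chromosome 17, 17521410 to 17625050, - strand), the insulin-regulated aminopeptidase of the GLUT4 vesicle, was at 52.8, 58.7 and 60.8 CPM in CT-CTD, at 58.1, 50.8 and 46.3 CPM in CT-WD, at 52.0, 49.5, 52.6 and 62.1 CPM in OE-CTD and at 58.0, 60.6, 50.4 and 67.5 CPM in OE-WD. All groups overlapped, and replicate 4 was the highest of both OE groups. Stx4a (ENSMUSG00000030805, chromosome 7, 127824294 to 127849019, + strand), syntaxin 4 of the cell surface, was at 48.8, 51.6 and 54.1 CPM in CT-CTD, at 43.9, 49.1 and 64.6 CPM in CT-WD, at 47.5, 47.5, 48.2 and 33.6 CPM in OE-CTD and at 51.3, 44.8, 46.3 and 34.8 CPM in OE-WD. Replicate 4 was the lowest of both OE groups for this gene. OE-CTD and CT-CTD did not overlap for Stx4a, but 3 of the OE-CTD libraries were just under the lowest CT-CTD library, and the log2 fold change was -0.22 ± 0.15 (adjusted p = 0.54, edgeR's quasi-likelihood test with Benjamini-Hochberg adjustment). Without OE-CTD 4 the Stx4a value was -0.11. For Lnpep it was -0.09 ± 0.11 (adjusted p = 0.761, edgeR with Benjamini-Hochberg adjustment), and -0.16 without OE-CTD 4. OE-CTD 4 and OE-WD 4, the libraries with the highest mitochondrial share, were thus also those with the most Tbc1d4 and Lnpep and the least Stx4a of their groups. The part of that share in these values was not tested. Without both libraries the 2 tested genes called between OE-CTD and CT-CTD were Tbc1d1 and Rab10. Without OE-CTD 4 alone Rab10 was not called (adjusted p = 0.057, edgeR).

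On western diet the same question gave no call. Of the 9 genes, 0 passed the adjusted test between OE-WD and CT-WD (edgeR's quasi-likelihood test; also 0 with DESeq2 and with limma), beside 112 of all genes (0.725%). At an unadjusted p under 0.05 the count was 1, Rab10, which was lower, beside 16.9% of all genes. Without CT-WD 1 the count was 2, Rab10 and Tbc1d1. The median log2 fold change of the 9 genes was -0.0999, and that of all genes 0.00556. Rab10 was called on control diet and not on western diet, but its diet by genotype interaction was 0.13 ± 0.14 (adjusted p = 0.942, edgeR's quasi-likelihood test with Benjamini-Hochberg adjustment), so a difference between the diets was not shown. With single libraries left out the interaction of Rab10 was between 0.051 and 0.21. The 9 genes gave 0 calls for the interaction (edgeR; also 0 with DESeq2 and limma), with 0% of all genes called; unadjusted, Tbc1d1 and Slc2a1 passed, 2 of 9, beside 5.92% of all genes.

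The diet comparisons asked what western diet did within each genotype. In CT, 0 of the 9 genes passed the adjusted test (edgeR; also 0 with DESeq2 and limma), with 0% of all genes called, and 1 gene, Slc2a1, passed at an unadjusted p under 0.05, beside 7.28% of all genes. In OE, 0 of the 9 genes passed with or without adjustment (edgeR; adjusted 0 with DESeq2 and limma), beside 0.00647% (1 gene) and 4.2% of all genes. Every one of the 9 genes overlapped between OE-WD and OE-CTD, as did all but 4.08% of all genes. Without overlap were 4 of the 9 for OE-CTD versus CT-CTD (15.5% of all genes), 1 for OE-WD versus CT-WD (11.6%) and 1 for CT-WD versus CT-CTD (9.63%). In OE the largest log2 fold changes between the diets were 0.18 ± 0.13 for Tbc1d1 and -0.18 ± 0.22 for both Tbc1d4 and Slc2a1. That of Slc2a1 was -0.07 without OE-WD 2. That of Tbc1d4 turned to 0.052 without OE-CTD 4, and its lowest value with a single library left out was -0.38. The interval was narrowest for Slc2a4, -0.13 to 0.23. Rabif therefore stood beside 9 other genes without a call in that comparison. The 4 pairwise comparisons share groups with one another, so their values are given side by side and not as independent results.

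**Figure D2:**
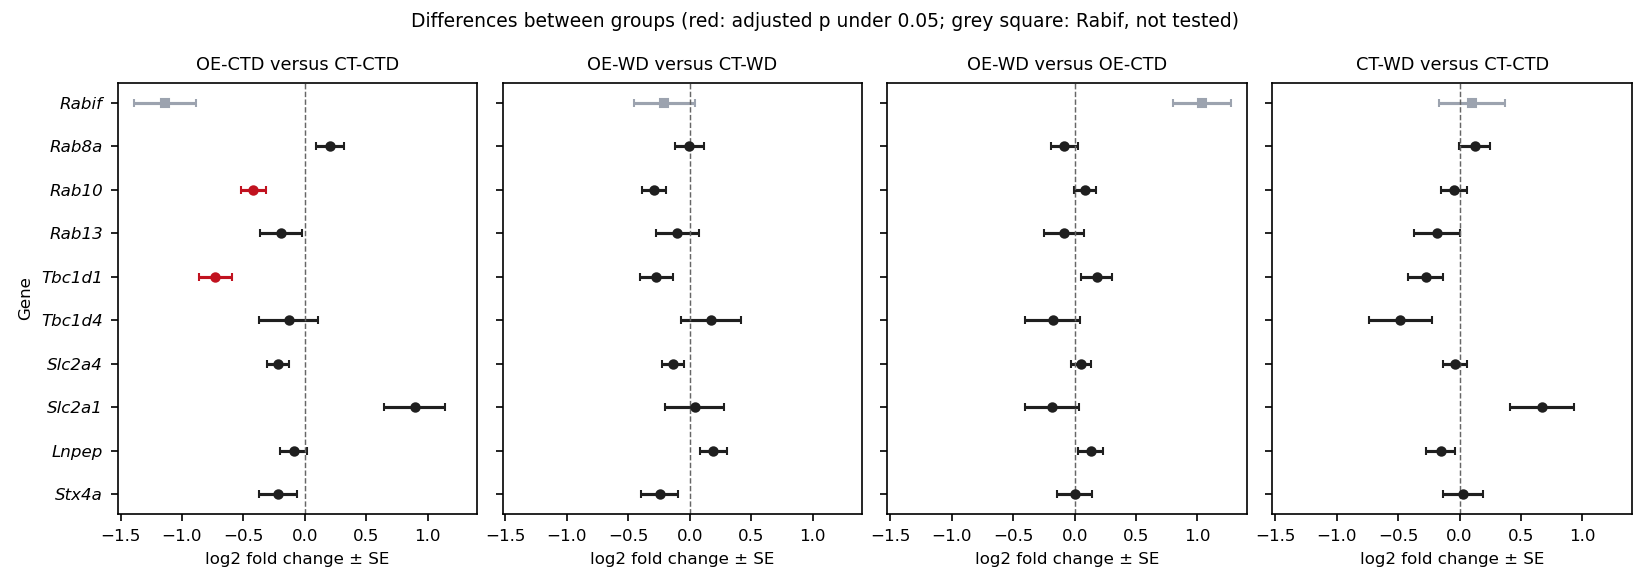
Log2 fold change of each gene (x axis) in the 4 pairwise comparisons, with bars of ± 1 SE from edgeR. Red marks an adjusted p under 0.05, black the other tested values, and the grey square Rabif, which was not tested; Tbc1d1 (-0.73) and Rab10 (-0.42) are the red points, both for OE-CTD versus CT-CTD.

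Levels were compared between genes only per length, on the deposited FPKM. The medians over 14 libraries were, in falling order, 191 FPKM for Slc2a4, 121 for Rab10, 22.02 for Stx4a, 12.6 for Rabif, 12.3 for Tbc1d1, 6.14 for Slc2a1, 5.01 for Tbc1d4, 4.25 for Lnpep, 3.05 for Rab13 and 2.67 for Rab8a. Slc2a4 exceeded Rab10, and Rab10 exceeded Stx4a, in all 14 libraries, and so did Tbc1d1 over Slc2a1 and Lnpep over Rab13. Other neighbors changed places: Rabif was above Tbc1d1 in 6 libraries, Slc2a1 above Tbc1d4 in 8, Tbc1d4 above Lnpep in 11, Rab13 above Rab8a in 11, and Stx4a above Rabif in 13. The level of Lnpep was between 1.62% and 2.86% of that of Slc2a4.

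Rab10 made up between 94.4% and 96.6% of the summed FPKM of Rab8a, Rab10 and Rab13, with a median of 95.6%. Rab8a held between 1.56% and 2.71% and Rab13 between 1.82% and 3.02%. The Rab8a share was between 1.60% and 1.73% in CT-CTD and between 2.14% and 2.71% in OE-CTD, which did not overlap, in the comparison in which Rab10 fell. On western diet, where Rab10 was not called, it was between 1.56% and 2.03% in CT-WD and between 2.10% and 2.47% in OE-WD. These did not overlap either. Relative to Slc2a4, Slc2a1 stood at 2.64%, 1.15% and 1.31% in CT-CTD, 3.67%, 1.60% and 2.97% in CT-WD, 3.33%, 3.73%, 3.34% and 4.07% in OE-CTD, while OE-WD had 3.30%, 2.42%, 3.57% and 2.96%. All OE-CTD ratios were above all CT-CTD ratios, and GLUT4 messenger RNA outnumbered that of GLUT1 in every library, by the least in OE-CTD 4. The ratio of Tbc1d4 to Tbc1d1 was 40.5%, 35.4% and 31.8% in CT-CTD, 57.9%, 25.6% and 18.5% in CT-WD, 40.3%, 52.8%, 47.2% and 75.8% in OE-CTD, while OE-WD had 32.2%, 42.0%, 36.7% and 58.7%. Here CT-WD held the lowest library, and the replicate 4 libraries were the highest of the OE groups.

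**Figure D3:**
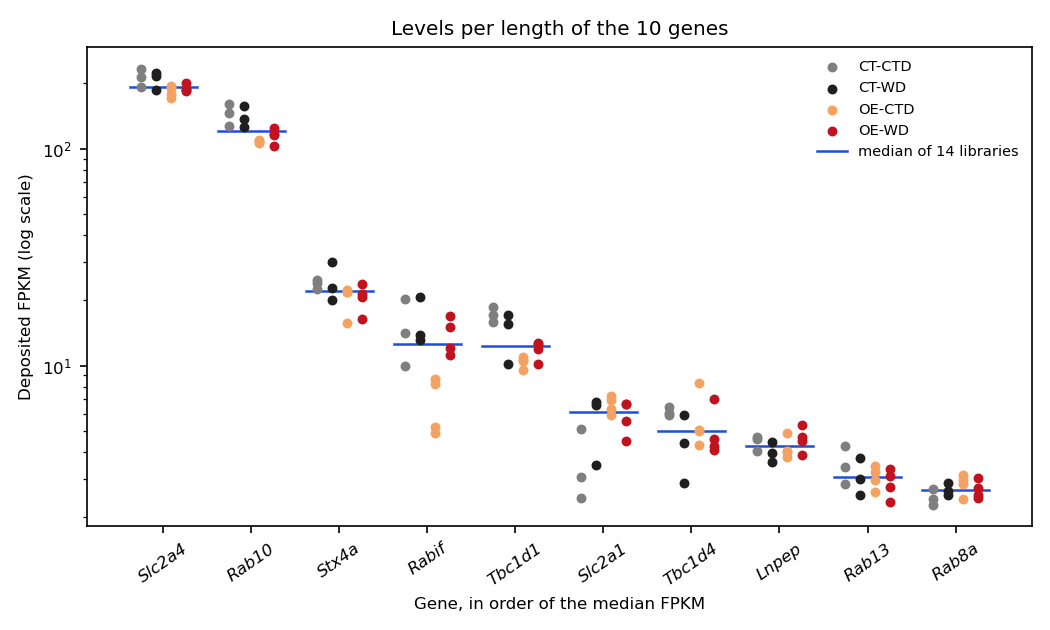
Deposited FPKM (log scale, y axis) of the 10 genes in order of their median, with 1 point for each of the 14 libraries, colored by group, and a line at the median. Slc2a4 (median 191) and Rab10 (121) lie above all other genes, and the Rabif points of OE-CTD (4.91 to 8.69) lie under those of the other groups.

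Marker genes were counted to describe what else the muscle samples held. The 10 muscle fiber markers, led by Myh4, summed to between 150900 and 209100 CPM, and the 8 slow fiber markers, led by Atp2a2, to between 4051 and 6540 CPM, in the 14 libraries. Muscle fiber sums of OE-CTD 1 to 3 (150900 to 157600 CPM) were under all CT-CTD libraries (163000 to 178700), and OE-CTD 4 was above them at 203800. There edgeR, DESeq2 and limma called 0 of the 10, and their part in the values of Tbc1d1 and Rab10 was not tested. The slow fiber sums had means of 4847 CPM in CT-CTD and 5873 in OE-CTD, 4886 in CT-WD and 5608 in OE-WD, with overlap on each diet. Atp2a2 did not overlap between genotypes, with 1468, 1110 and 1507 CPM in CT-CTD and 1746, 1810, 1618 and 1942 in OE-CTD, and 1411, 1172 and 1306 in CT-WD against 1832, 1835, 1632 and 1748 in OE-WD. By edgeR and limma 0 slow fiber markers were called on either diet, and by DESeq2 1 on each (Atp2a2). At an unadjusted p under 0.05, 3 of 8 were higher in OE on control diet (1426 of all 15458 genes were higher) and on western diet (1304 were higher). On western diet the others lay on the opposite side of 0, with a median log2 fold change of the 8 of -0.0222, against 0.241 on control diet; their part in the values of Tbc1d1 and Rab10 was not tested. All 10 endothelial markers were found and none was at 0, with Cdh5 the most abundant. They summed to 441, 433 and 457 CPM in CT-CTD, 523, 469 and 503 in CT-WD, 538, 546, 521 and 483 in OE-CTD, while OE-WD had 554, 545, 563 and 541. OE was above CT on each diet without overlap, and CT-WD was above CT-CTD. Tek rose in OE-CTD (0.52 on the log2 scale, adjusted p = 0.0232) and Cdh5 in OE-WD (0.46, adjusted p = 0.0322, edgeR's quasi-likelihood test with Benjamini-Hochberg adjustment), each against CT on the same diet. Tek was not called without CT-CTD 2 or 3 or OE-CTD 1, 2 or 3 (adjusted p 0.0529 to 0.111), nor Cdh5 without CT-WD 2 or 3 or OE-WD 2, 3 or 4 (adjusted p 0.0683 to 0.142) or with only the groups compared (0.137). With DESeq2 the calls were 2 in OE-CTD (Tek and Tie1) and 4 in OE-WD (Cdh5, Kdr, Tek and Tie1), all higher. At an unadjusted p under 0.05 edgeR had 5 of 10 higher on control diet and on western diet. Of all 15458 genes, 1426 and 1304 were higher at that p (15.9% and 16.9% in either direction). In OE-WD the log2 fold change was 0.58 for Kdr, 0.40 for Tie1, 0.38 for Tek and 0.33 for Emcn. Some endothelial markers were lower in OE-WD than in CT-WD: Flt1 with a log2 fold change of -0.33 (unadjusted p = 0.0125, edgeR; adjusted p = 0.173), Cldn5 with -0.31, Esam with -0.17 and Egfl7 with -0.10, so the higher sum was not shared by all 10. Between OE-CTD and CT-CTD the sum was higher in OE-CTD, as was Slc2a1, whereas Tbc1d1 and Rab10 were lower. The part of the endothelial sum in the values of these genes was not tested.

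The 8 macrophage markers, all found, none at 0 and led by Lyz2, summed to 72.9, 44.0 and 38.4 CPM in CT-CTD and to 74.8, 91.0, 119 and 73.3 CPM in OE-CTD, without overlap. On western diet their sums were 117, 57.2 and 48.9 CPM in CT-WD and 69.2, 117, 70.4 and 74.5 CPM in OE-WD, which overlapped. At an unadjusted p under 0.05, 7 of the 8 were higher in OE-CTD, beside 1426 of all 15458 genes (15.9% in either direction). With edgeR or limma 0 passed the adjusted test, against 2 with DESeq2 (C1qa and Cd68). The part of these markers in the values of Tbc1d1, Rab10 and Slc2a1 was not tested either. Adipocyte markers, led by Fabp4, summed to between 171 and 519 CPM and erythrocyte markers, led by Hba-a1, to between 125 and 382 CPM, each with overlap between OE-CTD and CT-CTD. Epidermal markers, led on average by Trp63, summed to between 15.7 and 139 CPM, of which Trp63 made up only 13.2 CPM in the highest, OE-WD 3, with 4 of the 8 at 0 in OE-CTD 4 and 2 in CT-CTD 2, and CT-WD 1, at 102 CPM, was the highest of the CT libraries. The sample is a tissue, so a lower value of Tbc1d1 or Rab10 can come from less RNA per fiber or from fewer of the cells that hold it, and these cannot be told apart.

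Genes that work with the members were counted in lists. Of all genes, edgeR called 2.67% between OE-CTD and CT-CTD. In a list of Rab exchange factors, GTPase activators and 1 effector of Rab11, Rab11fip5, only the effector was called between OE-CTD and CT-CTD, 1 of 13 genes. Its log2 fold change was 0.62 ± 0.15 (adjusted p = 0.0386, edgeR's quasi-likelihood test with Benjamini-Hochberg adjustment). Its values were 53.2, 52.3 and 60.2 CPM in CT-CTD and 74.5, 78.7, 79.8 and 108 CPM in OE-CTD, with OE-CTD 4 the highest. The call was lost without any single library of these 2 groups (adjusted p 0.051 to 0.156) and with limma (0.0708 and 0.066). Of 9 actin and motor genes, 1 rose and 1 fell. Myo5a, the myosin motor that binds Rab10 on GLUT4 vesicles, was at 22.7, 24.1 and 24.5 CPM in CT-CTD and at 13.2, 14.7, 14.3 and 13.1 CPM in OE-CTD. It fell by 0.78 ± 0.12 on the log2 scale (adjusted p = 0.00575, edgeR with Benjamini-Hochberg adjustment), and passed in all 23 settings. Actn4, an actin cross-linker, was at 53.0, 60.0 and 53.1 CPM in CT-CTD and at 73.2, 77.2, 74.5 and 69.6 CPM in OE-CTD. It rose by 0.41 ± 0.099 (adjusted p = 0.0398, edgeR with Benjamini-Hochberg adjustment), without overlap, and was not called without any of CT-CTD 1 to 3, OE-CTD 1 to 3 or OE-WD 3 (adjusted p 0.0578 to 0.171), nor with limma (0.0571 and 0.0528).

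Of 9 tested genes of hexose transport and phosphorylation, edgeR called 1 higher and 1 lower between the same groups. DESeq2 called 2 higher (Hk1 and Slc2a13) and 1 lower (Slc2a3), and limma only Slc2a3. Slc2a3 (GLUT3) was at 21.2, 25.6 and 17.8 CPM in CT-CTD and at 10.5, 10.2, 11.4 and 10.7 CPM in OE-CTD, and fell by 1.01 ± 0.16 on the log2 scale (adjusted p = 0.00627, edgeR's quasi-likelihood test with Benjamini-Hochberg adjustment), in all 23 settings. Hexokinase Hk1 was at 10.7, 10.8 and 9.41 CPM and at 13.9, 15.0, 13.3 and 14.8 CPM, and rose by 0.46 ± 0.12 (adjusted p = 0.0488, edgeR with Benjamini-Hochberg adjustment). That call was lost without any single library outside CT-WD (adjusted p 0.0507 to 0.226), and also with no filter (0.0579), with limma (0.102 and 0.0942), with the replicate block (0.0694) and without both libraries of high mitochondrial share (0.0705). Of 52 tested genes with a symbol of Rab and a number, a few of which, such as Rab3ip, are not GTPases, edgeR called 0 higher and 2 lower, Rab10 and Rab12. DESeq2 called 3 higher and 3 lower (Rab2a, Rab3d, Rab10, Rab12, Rab15 and Rab31) and limma only Rab12. Of all genes, edgeR called 413 (2.67%), DESeq2 799 and limma 230 and 260. Rab12, a Rab of endosomes, was at 271, 305 and 320.3 CPM in CT-CTD and at 223, 215, 197 and 215 CPM in OE-CTD, without overlap. It fell by 0.49 ± 0.082 on the log2 scale (adjusted p = 0.00704, edgeR with Benjamini-Hochberg adjustment), and without CT-CTD 3 the adjusted p was 0.0518. The 11 genes of vesicle cargo and sorting, the other 12 Rabs of GLUT4 traffic, 12 genes of membrane fusion, 16 of the exocyst and the GTPases that act on it, with their regulators, and 7 kinases gave 0 calls in this comparison with edgeR. At an unadjusted p under 0.05 these lists had 4, 2, 2, 1 and 1 genes, respectively, beside 15.9% of all genes. With limma they also gave 0 calls, and with DESeq2 2 cargo genes (Lrp1 and Vamp2), 2 Rabs (Rab3d and Rab31) and 1 kinase (Camkk2) were called, all higher in OE-CTD. By edgeR the smallest unadjusted p belonged to Lrp1 among cargo genes (0.81 ± 0.23, adjusted p = 0.0842), Rab3d (0.58 ± 0.18, adjusted p = 0.1), Stx3 (0.62 ± 0.20, adjusted p = 0.127), Ralb (0.46 ± 0.16, adjusted p = 0.14) and Camkk2 (0.73 ± 0.22, adjusted p = 0.0996), all higher in OE-CTD. Lrp1 passed with no filter (0.00183), the replicate block (0.0414), only the groups compared (0.0126), without CT-WD 1 (0.0237) and without both libraries of high mitochondrial share (0.0495), Ralb with the replicate block (0.0432), and Camkk2 with no filter (0.0467), only the groups compared (0.046) and without CT-WD 2 (0.0386).

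On western diet edgeR called 2 genes of these lists between OE-WD and CT-WD, beside 112 (0.725%) of all genes, and limma called 0. DESeq2 called 7, those 2 with Actn4, Hk2, Rab7, Rab12 and Rhoq, beside 573 of all genes. Myo5a was at 20.8, 23.6 and 29.0 CPM in CT-WD and at 18.0, 16.3, 15.4 and 13.4 CPM in OE-WD, and fell by 0.63 ± 0.12 on the log2 scale (adjusted p = 0.0305, edgeR's quasi-likelihood test with Benjamini-Hochberg adjustment). It was not called without CT-WD 2, CT-WD 3, OE-WD 2, OE-WD 3 or OE-WD 4 (adjusted p 0.0766 to 0.142), with limma (0.0624 and 0.0732), with only the groups compared (0.164) or without both libraries of high mitochondrial share (0.0804). Prkag3, the AMP-activated kinase subunit of fast muscle, was at 181, 229.7 and 175 CPM in CT-WD and at 266, 280.2, 284 and 275 CPM in OE-WD, and rose by 0.50 ± 0.10 (adjusted p = 0.037, edgeR with Benjamini-Hochberg adjustment). Leaving out CT-WD 3, any of OE-CTD 1 to 3 or any of OE-WD 2 to 4 ended that call (adjusted p 0.0581 to 0.191), as did limma (0.0511 and 0.0568), only the groups compared (0.164) and leaving out both libraries of high mitochondrial share (0.0848). In edgeR, Rab12 differed by -0.33 ± 0.082 (adjusted p = 0.0709), Hk1 by 0.39 ± 0.12 (adjusted p = 0.117), Rhoq by 0.28 ± 0.081 (adjusted p = 0.112), Snap23 by 0.40 ± 0.13 (adjusted p = 0.146), Lrp1 by 0.68 ± 0.23 (adjusted p = 0.164), Rab3il1 by 0.70 ± 0.26 (adjusted p = 0.186) and Rab3d by 0.54 ± 0.18 (adjusted p = 0.148). All of these but Snap23 were called without CT-WD 1: Rab12 (adjusted p = 0.0178), Hk1 (0.0474), Rhoq (0.023), Lrp1 (1.04, 0.00997), Rab3il1 (1.06, 0.0209) and Rab3d (0.0416). Lrp1 was also called with no filter (0.0171), and Rab12 (0.00587) and Rhoq (0.0293) with DESeq2. With single libraries left out Snap23 was between 0.22 and 0.53 and Rab3il1 between 0.46 and 1.06. The diet comparisons and the interaction gave 0 calls in these lists with edgeR, DESeq2 or limma. Unadjusted, Actn4 (0.20), Slc2a3 (0.36) and Rab25 (1.73, at a mean of only 0.295 CPM) were the lowest in p of their lists in OE, Stx3 (0.54), Rhoq (-0.24), Prkag3 (-0.26) and Rab40b (-0.37) in CT, and Stx3 (-0.65), Rhoq (0.27), Prkag3 (0.40), Slc2a3 (0.66) and Rab40b (0.38) for the interaction.

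Across the 14 libraries, log2 CPM of some members varied together, as Pearson's r of values that share libraries and groups. The highest were 0.846 for Rab10 and Slc2a4, 0.806 for Rab10 and Tbc1d1, and 0.803 for Tbc1d1 and Slc2a4, with n = 14. Stx4a had 0.775 with Rab10 and 0.772 with Slc2a4, but 0.531 with Tbc1d1, and Tbc1d4 had 0.67 with Lnpep. The lowest were -0.729 for Tbc1d4 and Stx4a, -0.715 for Tbc1d1 and Slc2a1, and -0.712 for Rab13 and Slc2a1. Rabif had 0.471 with Rab10, 0.429 with Tbc1d1 and 0.243 with Slc2a4, so it did not follow the group of Rab10, Tbc1d1 and Slc2a4 closely.

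Of 12745 genes with a mean of at least 1 CPM, those most like Rabif over the 14 libraries were Vps16 (r = 0.902), Ddx27 (0.892), Zfp112 (0.844), Cspp1 (0.836) and Lsm5 (0.807), and the least like it were Gimap4 (-0.924), Ech1 (-0.88) and Fabp3 (-0.822). Ech1, an enzyme of fatty acid oxidation, was at 210.4, 205, 206 and 183 CPM in OE-CTD and at 136, 145 and 163 CPM in CT-CTD, so that OE-CTD was above CT-CTD for Ech1 and under it for Rabif. For other members the gene with the highest r was Rora for Tbc1d1 (0.94), Fbxl18 for Tbc1d4 (0.931), Gm44250 for Rab10 (0.968), Nelfb for Rab13 (0.87), Gm9136 for Slc2a4 (0.954), Midn for Slc2a1 (0.908), Aplp2 for Lnpep (0.901) and Mrpl50 for Stx4a (0.949). Rora, a nuclear receptor, was at 94.4, 102 and 102 CPM in CT-CTD and at 67.9, 69.1, 65.9 and 68.1 CPM in OE-CTD, again without overlap. Neither Gm44250 nor Gm9136 overlaps a member in the annotation.

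Reads of some members could not be told from those of overlapping genes, since strand use in counting is not stated. Antisense to Rab10, Rab10os overlaps 2950 bases and held 2.62% as many counts over all libraries. Within Rabif a small nucleolar RNA gene, Gm25612, of 126 bases lies on the same strand, with 1.3% as many counts.

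Promoter windows of 300 bases, from RefSeq on GRCm38.p6, were found for 9 of the 10 members as 11 windows, with 2 each for Rab13 and Tbc1d1 and none for Slc2a4. The letters CACGTG, the E-box bound by Myc and Max among others, were in 0 of the 11 windows on either strand, against 7.15% of all 32851 windows of that length. GGGCGG was in 8 of 11 (35.7% of all windows), CCAAT in 6 (37.4%), CACGCG in 3 (9.27%) and TATAAA in 1 (13.6%). None of these words contains another, and they were picked after the sequences had been seen. The windows of Rabif, of the 2 genes that fell and of Slc2a1, the member with the largest positive log2 fold change of OE-CTD over CT-CTD, are printed 5′ to 3′ on the gene's strand, with GGGCGG or its reverse complement in capitals: Rabif chr1:134494389-134494688 (+), Rab10 chr12:3309920-3310219 (-), Tbc1d1 chr5:64160010-64160309 and chr5:64230107-64230406 (+), and Slc2a1 chr4:119108495-119108794 (+).
Rabif: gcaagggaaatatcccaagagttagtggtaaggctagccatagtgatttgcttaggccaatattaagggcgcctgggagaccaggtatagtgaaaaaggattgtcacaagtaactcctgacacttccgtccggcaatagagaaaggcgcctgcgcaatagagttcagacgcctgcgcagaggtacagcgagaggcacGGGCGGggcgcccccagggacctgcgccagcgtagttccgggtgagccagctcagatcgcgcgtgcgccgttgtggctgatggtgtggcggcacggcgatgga
Rab10: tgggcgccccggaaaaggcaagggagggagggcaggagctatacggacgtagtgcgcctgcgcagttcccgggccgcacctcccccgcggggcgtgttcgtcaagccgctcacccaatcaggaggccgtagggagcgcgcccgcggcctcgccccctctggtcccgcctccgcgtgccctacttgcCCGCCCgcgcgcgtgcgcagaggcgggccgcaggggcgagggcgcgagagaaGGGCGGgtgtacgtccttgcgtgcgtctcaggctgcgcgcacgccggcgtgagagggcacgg
Tbc1d1, first window: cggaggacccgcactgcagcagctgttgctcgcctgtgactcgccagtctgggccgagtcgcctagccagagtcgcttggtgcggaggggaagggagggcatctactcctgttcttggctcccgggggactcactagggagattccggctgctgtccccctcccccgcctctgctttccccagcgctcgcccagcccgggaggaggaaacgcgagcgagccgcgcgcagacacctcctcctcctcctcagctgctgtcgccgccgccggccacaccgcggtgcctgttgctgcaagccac
Tbc1d1, second window: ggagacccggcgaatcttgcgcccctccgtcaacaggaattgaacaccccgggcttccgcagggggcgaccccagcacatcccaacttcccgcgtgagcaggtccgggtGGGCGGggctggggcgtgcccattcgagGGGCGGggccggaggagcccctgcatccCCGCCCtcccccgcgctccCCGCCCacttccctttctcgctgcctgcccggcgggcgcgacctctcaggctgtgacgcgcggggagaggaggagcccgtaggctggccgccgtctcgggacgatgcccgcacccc
Slc2a1: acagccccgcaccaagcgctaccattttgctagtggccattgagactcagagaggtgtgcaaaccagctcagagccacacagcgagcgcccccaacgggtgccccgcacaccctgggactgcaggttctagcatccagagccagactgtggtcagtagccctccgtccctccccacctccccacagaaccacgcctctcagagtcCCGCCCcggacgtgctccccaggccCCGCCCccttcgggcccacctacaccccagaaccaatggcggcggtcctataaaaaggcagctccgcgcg
The capitals stand once in the Rabif window, at 2 places in that of Rab10, at 0 and 4 in those of Tbc1d1 and at 2 in that of Slc2a1. The share of G and C was 58.3% for Rabif, 74.7% for Rab10, 69.3% and 74.0% for Tbc1d1 and 65.3% for Slc2a1. A match of letters is a description of the window, and a missing match says nothing about a factor.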

How the data were processed

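Members and gene lists were chosen with earlier results of these data known. The authors deposited raw counts per Ensembl gene and FPKM, which are scaled by gene length. The library size implied by the FPKM was between 79.9% (OE-CTD 4) and 98.0% (OE-WD 3) of the summed counts, so it was not the library total. Those libraries also had the lowest and the highest TMM factor (0.8877 and 1.068). The submitters' processing notes name HISAT2 2.0.5, featureCounts 1.5.0-p3 and mm10. Of 54409 gene identifiers shared with GENCODE M21 (GRCm38), 53499 had the same position, the 10 members among them. For tests the raw counts went into edgeR 4.0.16 (R 4.3.3) with TMM, filterByExpr, the quasi-likelihood test and a mean per group over 14 libraries, which left 15458 genes. The Benjamini-Hochberg adjustment ran over all genes of a comparison. Log2 CPM used a prior count of 2. DESeq2 1.42.0 and limma 3.58.1 on log2(FPKM + 1) or log2(FPKM + 0.1), RLE factors, no filter, a replicate block, only the groups compared and single libraries left out were alternatives. The code was tested on simulated data; it missed the first limit set for the changed genes recovered and passed one that was lowered afterwards. The biological coefficient of variation was 17%, and total counts were between 21833839 and 28519159.

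Named genes were all members, every list gene called, the lowest p of each list where under 0.05, the 5 highest and 3 lowest correlations with Rabif, the highest for each other member, and the leading gene of each marker list; results that need withheld items are not reported here. Replicate numbers were checked as a pairing by correlating deviations from group means. For OE-WD and OE-CTD the correlations were 0.11, 0.233, 0.181 and 0.493, and for CT-WD and CT-CTD 0.459, 0.156 and 0.292. Numbers were taken to pair libraries within a genotype, from this check alone, but the main fit has no term for such pairs. In edgeR with a replicate block within each genotype, Slc2a1 and Tbc1d1 had unadjusted p = 0.00218 and 0.01 between the diets in CT. Their interactions had unadjusted p = 0.00226 and 0.00345 in that edgeR fit. None of these was called (adjusted p 0.182 to 0.269, Benjamini-Hochberg). No library pair of a group differed by less than sampling noise (chi-square per degree of freedom 7.81 to 50.8).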

Additional observations from a re-analysis of the deposited data

Results flagged for a closer look

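In 38 groups of 4 libraries, 5 held a library far from the other 3. These groups rest on the same OE-CTD and OE-WD libraries, of which OE-CTD 4 and OE-WD 4 stood apart over all genes. The count was therefore not set against chance. Tbc1d1 was at 65.0 CPM in OE-CTD 2, with the others between 71.8 and 73.0 CPM. Slc2a4 was at 641 CPM in OE-WD 1, against 589 to 595 CPM in the others. Stx4a was at 33.6 CPM in OE-CTD 4, against 47.5 to 48.2 CPM. The summed muscle fiber markers were at 203800 CPM in OE-CTD 4, against 150900 to 157600 CPM, and the summed macrophage markers at 117 CPM in OE-WD 2, against 69.2 to 74.5 CPM.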

How the results depend on the processing

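Of 1120 values of members under the alternatives, 1064 were unchanged, which means the same direction and side of the threshold for the tested genes and a move of at most 1 SE for Rabif. Rabif, untested, changed sign in 2 comparisons: with single libraries left out it ranged from -0.15 to 0.39 for CT-WD versus CT-CTD and from -0.33 to 0.039 for OE-WD versus CT-WD. For OE-CTD versus CT-CTD the members called were 2, with 1 under limma on log2(FPKM + 1), 3 under DESeq2, no filter, only the groups compared and the replicate block, and 0 to 3 with single libraries left out. For OE-WD versus CT-WD they were 0, and 0 to 2 with single libraries left out. In the diet comparisons and the interaction they were 0 in every setting, the replicate block (0) included, which elsewhere added only Slc2a1 among the members. A replicate block within each genotype, and leaving out both libraries of high mitochondrial share, were chosen after seeing the data and also gave 0 calls there, and 2 for OE-CTD versus CT-CTD without both libraries. Reversed log2 fold changes of the tested genes were all uncalled: for Stx4a in OE-WD versus OE-CTD -0.0052 with only the groups compared and -0.0071 without both libraries, for Rab8a in OE-WD versus CT-WD 0.021 with the replicate block and 0.039 without both, and for Tbc1d4 there -0.013 and -0.026. The cause was not tested. With single libraries left out the ranges were, for OE-WD versus OE-CTD, -0.11 to 0.10 (Stx4a) and -0.38 to 0.052 (Tbc1d4), for CT-WD versus CT-CTD -0.15 to 0.14 (Stx4a), -0.13 to 0.034 (Rab10) and -0.11 to 0.041 (Slc2a4), for OE-WD versus CT-WD -0.072 to 0.042 (Rab8a), -0.22 to 0.057 (Rab13), -0.21 to 0.21 (Slc2a1) and -0.057 to 0.46 (Tbc1d4), and for the interaction -0.14 to 0.15 (Stx4a) and -0.060 to 0.25 (Rab13). All genes called between OE-CTD and CT-CTD, 413, were 799 with DESeq2, 760 with no filter, 230 and 260 with limma, 687 with the block and 77 to 615 with single libraries left out. Between OE-WD and CT-WD, 112 became 573, 560, 48 and 38, 4 with only the groups compared, 5 without both libraries and 4 to 1499 with single libraries left out. In CT-WD versus CT-CTD, 0 became 93 with no filter, 35 with DESeq2, 13 with the block within genotype and up to 42 without a single library, in OE-WD versus OE-CTD 1 became 5 with no filter, 2 with that block and 0 without both libraries, and the interaction, at 0, gave 29 with no filter, 9 with DESeq2 and 1 with that block. The paired correlations for OE-WD and CT-WD were -0.297, -0.229 and -0.0928 and for OE-CTD and CT-CTD 0.044, -0.154 and -0.143, so numbers were not read as pairs between genotypes. Depth limits Rab13, Slc2a1 and Rab8a most, with at least 128, 187 and 234 counts per library.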
